A study of Mus musculus with 4 samples.

Results

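DNA replication genes encode the proteins that mark replication origins, open the double helix and copy it. The members described here are 36 named genes of the 28765 in the expression table, chosen by symbol for their known role: 5 for origin licensing (Orc1, Orc2, Orc6, Cdc6, Cdt1), 6 MCM helicase subunits (Mcm2 to Mcm7), 5 for helicase activation (Cdc45, Gins1, Gins2, Gins3, Mcm10), 6 for polymerases and primase (Pola1, Pola2, Prim1, Prim2, Pold1, Pole), 6 for the sliding clamp and its loader (Pcna, Rfc1 to Rfc5), 2 for Okazaki fragment maturation (Fen1, Lig1), 2 for chromatin assembly (Chaf1a, Chaf1b) and 4 regulators of the G1/S transition (Ccne1, Ccne2, E2f1, E2f2). Gene positions are on GRCm38 (mm10), from GENCODE M21. All 36 were found, and all 36 passed the filter on low values, which asked for 1 FPKM or more on average over the libraries and which 12940 genes passed. FPKM counts the reads per kilobase of a gene, relative to the depth of its library.

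RNA-seq was done on 4 libraries from CD-1 mouse embryos at embryonic day 9.5 (E9.5), around the closure of the neural tube: brain and spine of controls, and brain and spine of embryos with neural tube defects (NTD). Each of these 4 groups is 1 library. The labels give the NTD libraries the treatment of folate deficiency, and the protocol describes parents kept on a low-folate diet for at least 8 weeks and an intraperitoneal injection of methotrexate (MTX) at 1.5 mg/kg at E7.5, with E0.5 as the day of the plug; methotrexate is an antifolate that inhibits dihydrofolate reductase. The same protocol text stands beside the controls, and no source used here says whether their dams had the diet or a vehicle injection. Embryos with visible defects were collected, so the NTD libraries join treatment and phenotype. Nor do the sources say how many embryos stand behind each library. No difference below has a replicate check and no p-value is given; each fold is a ratio of reads per library total with a 95% exact counting interval, which covers counting error only and not the variation between embryos.

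In G1, the origin recognition complex, Cdc6 and Cdt1 load the MCM complex onto origins, and Cdc45 and the GINS complex then turn it into an active helicase. Primase and polymerase alpha start each strand, the clamp loader places PCNA on the primed DNA, and polymerases delta and epsilon extend it. Many of these genes are transcribed at the G1/S boundary through E2F factors, which cyclin E with its kinase helps to release from the retinoblastoma proteins. Neuroepithelial cells of the closing neural tube cycle fast, and methotrexate limits the supply of thymidylate and purines that replication uses.

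The libraries held between 16272101 and 16911677 reads. The median ratio of all compared genes was -0.03 on the log2 scale in NTD brain against control brain and -0.04 in NTD spine against control spine, so a gene at the median lay slightly below its control. Tissue content differed between libraries as well. Of 12 heart genes compared, 12 were higher in NTD brain than in control brain (43.6% of all genes). The 13 listed summed to 222 against 53.1 FPKM. In NTD spine 11 of 11 erythroid genes were lower than in control spine (58% of all genes), with a sum of 3669 against 7027 FPKM. All 12 neural progenitor markers were above 0 in every library, with sums of 509.6 FPKM in control brain against 427 in NTD brain, and of 372 in control spine against 326 in NTD spine. In bulk tissue, fewer cells of a type and less RNA per cell cannot be told apart.

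Promoter windows in the RefSeq table, on build GRCm38.p6, run from 250 bases before to 50 bases after a start site annotated in RefSeq, 300 bases in all. They were found for 29 of the 36 members, in 35 windows; Mcm4, Gins1, Gins2, Prim2, Pole, Rfc2 and Ccne2 had no entry. For 11 of the 35 windows that start lies over 100 bases inside the gene as GENCODE draws it, so the bases before it are not those before the outermost start; windows of Cdc6, E2f1 and Pcna are among them. Core forms of the site bound by E2F factors were searched on both strands, namely the letters TTCCCGC along with TTGGCGC and with TTCGCGC and also with TTGCCGC, and overlapping matches were joined and counted once. At least 1 match was found for 19 of the 29 members (65.5%), against 10.9% of all 27025 genes with a window and 20.5% of the 9074 compared genes with one. At least 2 matches stood in the windows of 10 members (34.5%), against 2.81% of the compared genes. The letters CCAAT were found for 18 members (62.1%, against 43.5% of the compared genes) and GGGCGG for 22 (75.9%, against 71.4%), both on either strand. The bases before the start are shown for Mcm5 and Chaf1a, which have both of their E2F matches there and whose ratios in brain, given below, differ. They are also shown for Mcm2, another MCM subunit, as a member with none, picked after its values were seen. All 3 stretches lie outside their own gene as GENCODE draws it (exons of other genes were not checked). Each is printed 5′ to 3′ on the gene's strand, with E2F matches in capitals.

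Mcm5, chr8:75109259-75109508, plus strand: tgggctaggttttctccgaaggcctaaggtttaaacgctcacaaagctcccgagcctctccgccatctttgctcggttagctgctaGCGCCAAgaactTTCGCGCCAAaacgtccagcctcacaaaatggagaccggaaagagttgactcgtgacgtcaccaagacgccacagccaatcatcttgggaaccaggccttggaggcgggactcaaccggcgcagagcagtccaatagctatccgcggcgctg
Chaf1a, chr17:56040166-56040415, plus strand: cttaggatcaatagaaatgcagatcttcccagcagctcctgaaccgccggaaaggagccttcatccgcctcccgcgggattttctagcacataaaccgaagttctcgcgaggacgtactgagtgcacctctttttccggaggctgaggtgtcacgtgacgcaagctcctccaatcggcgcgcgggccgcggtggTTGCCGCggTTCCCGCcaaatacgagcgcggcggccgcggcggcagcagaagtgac
Mcm2, chr6:88898781-88899030, minus strand: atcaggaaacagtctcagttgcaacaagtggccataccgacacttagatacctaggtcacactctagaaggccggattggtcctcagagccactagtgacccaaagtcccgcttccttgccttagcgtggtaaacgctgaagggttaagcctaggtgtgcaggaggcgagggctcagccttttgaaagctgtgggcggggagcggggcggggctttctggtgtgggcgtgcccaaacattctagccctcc

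A match is a description of letters, not a bound site, and a window with none says only that these 4 forms are not in it. The 19 members with a match had a median log2 ratio of 0.02 in NTD brain against control brain and 0.11 in NTD spine against control spine. The 10 with a window and no match had medians of 0.06 and 0.04.

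**Figure D1:**
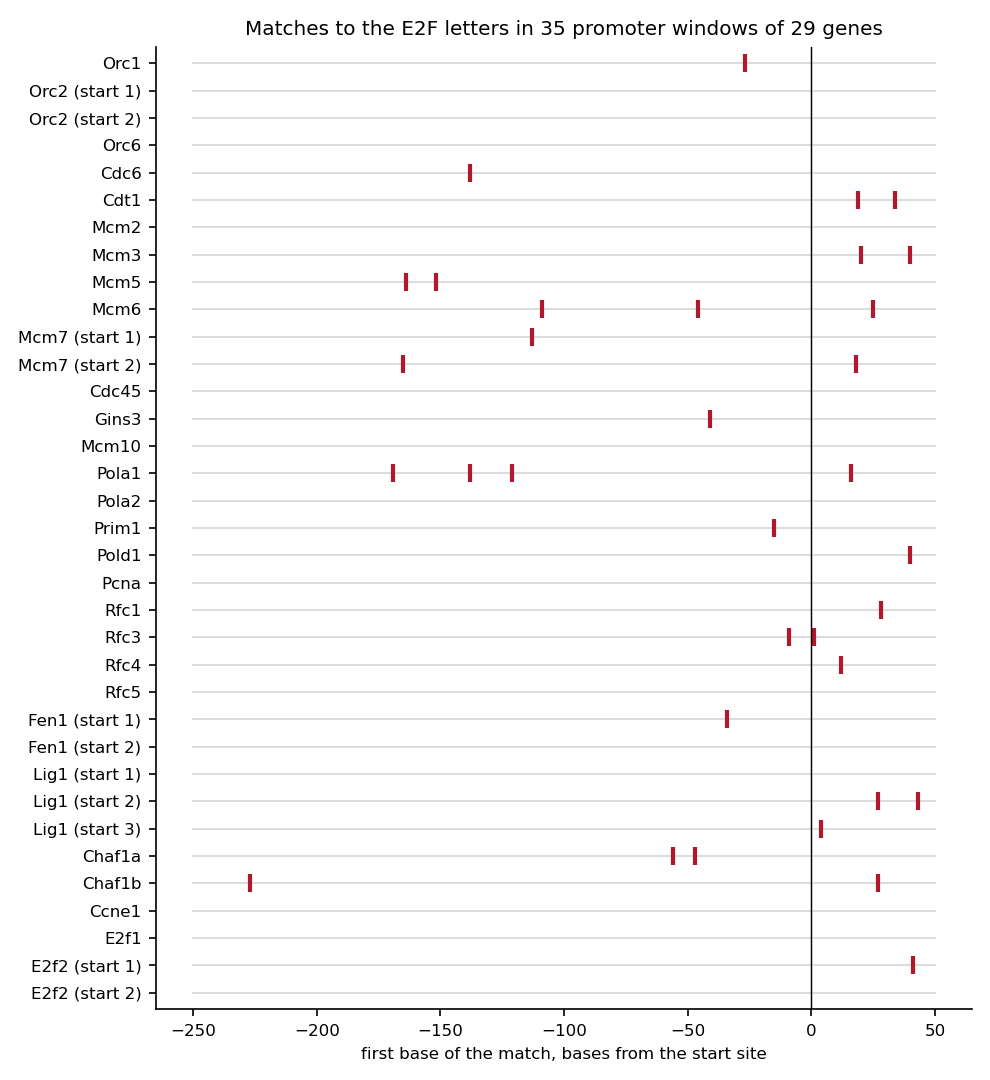
Positions of the matches to the E2F letters in the 35 promoter windows of 29 members, with the distance from the start site in bases on the x axis and 1 line per window. Each tick is the first base of a match, and 10 members have at least 2.

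The replication genes kept nearly the same order of levels in all 4 libraries, with medians between 21.3 and 24.9 FPKM. Their summed level was 1449 FPKM in control brain against 1524 in NTD brain, and was 1342 in control spine against 1474 in NTD spine, with 0.598% and 0.621% of the reads in the brain libraries and 0.555% and 0.607% in the spine libraries. The 6 MCM subunits made up 42.7% of the members' summed FPKM in control brain against 42.8% in NTD brain, and 42.2% in control spine against 43.8% in NTD spine. Spearman's rho between the levels of the 36 genes in any pair of libraries lay between 0.984 and 0.993, as a description, and no gene moved by more than 5 ranks. Pcna was the highest of the 36 in every library and Fen1 the lowest.

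**Figure D2:**
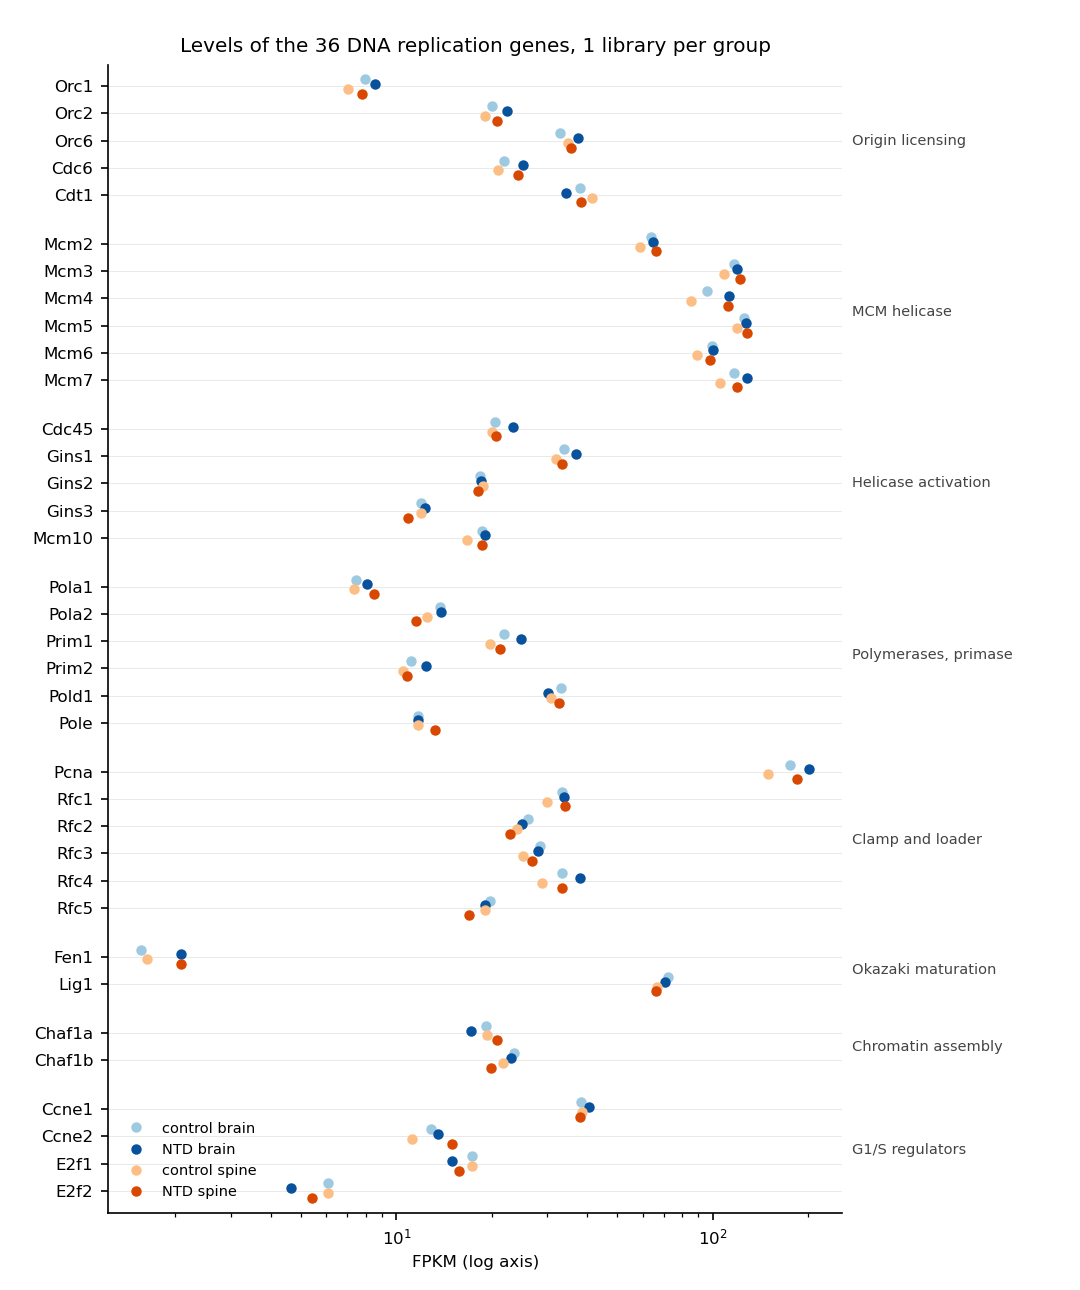
FPKM on a log axis of each of the 36 genes in the 4 libraries, ordered by role, with 1 point per library and no error bar since each group has 1 library. The points of a gene lie close together beside the span between genes, from Fen1 at 1.56 FPKM to Pcna at 202 FPKM.

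In NTD brain against control brain, 25 of the 36 genes were higher and 11 lower on the log2 ratio of (FPKM + 1), against 43.6% higher and 56.4% lower among all genes compared. The median of the 36 was 0.03, the range -0.33 to 0.27. At least 1.2-fold on that scale, 1 was higher (Fen1; 7.25% of all genes compared) and 1 lower (E2f2; 13.8%). Counting intervals lay above 1 for 10 of 36 (16.1% of all genes with whole reads) and below 1 for 5 of 36 (25.7%). Intervals narrow as reads increase, and most members lie well above the filter. Among genes that averaged 5 FPKM or more, intervals lay above 1 for 1607 and below 1 for 2218 of the 7776 with whole reads. At that level 5.27% of genes were at least 1.2-fold higher and 10.3% lower. When the libraries were rescaled to the same sum of FPKM, 16 of the 36 were higher, against 37.3% of all genes. The median was then below 0, at -0.001746, beside -0.06 for all genes. Rescaled by the median ratio, 29 were higher, against 49.4% of all genes, and the median was 0.07.

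In NTD spine against control spine, 25 were again higher and 11 lower, against 41.9% higher and 58% lower among all genes compared. The median was 0.10 and the range -0.16 to 0.39. Mcm4, Pcna and Ccne2 were at least 1.2-fold higher (3 of 36, against 6.38% of all genes compared) and 0 at least 1.2-fold lower (15.2%). Counting intervals lay above 1 for 17 of 36 (17.2% of all genes) and below 1 for 4 of 36 (26.6%), which were Cdt1, Pola2, Rfc5 and Chaf1b. Among genes that averaged 5 FPKM or more, intervals lay above 1 for 1740 and below 1 for 2295 of the 7776 with whole reads. At that level 5.03% of genes were at least 1.2-fold higher and 11.3% lower. Rescaling to the same sum moved the share of all genes that were higher in NTD spine from 41.9% to 51.7%, and gave 28 of the 36 higher with a median of 0.15. Rescaling by the median ratio gave 27 higher, against 48.9% of all genes, with a median of 0.14. Reads of all 36 genes together exceeded control 1.04-fold in brain (1.03 to 1.05) and 1.09-fold in spine (1.08 to 1.10). These pooled folds weigh abundant genes most: the 6 MCM genes held 46923 of the 102247 reads in NTD brain and 46757 of 100768 in NTD spine. Pooled by role, folds in brain ran from 0.932 for chromatin assembly to 1.06 for origin licensing. In spine they ran from 0.998 for Okazaki fragment maturation to 1.13 for the MCM genes.

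**Figure D3:**
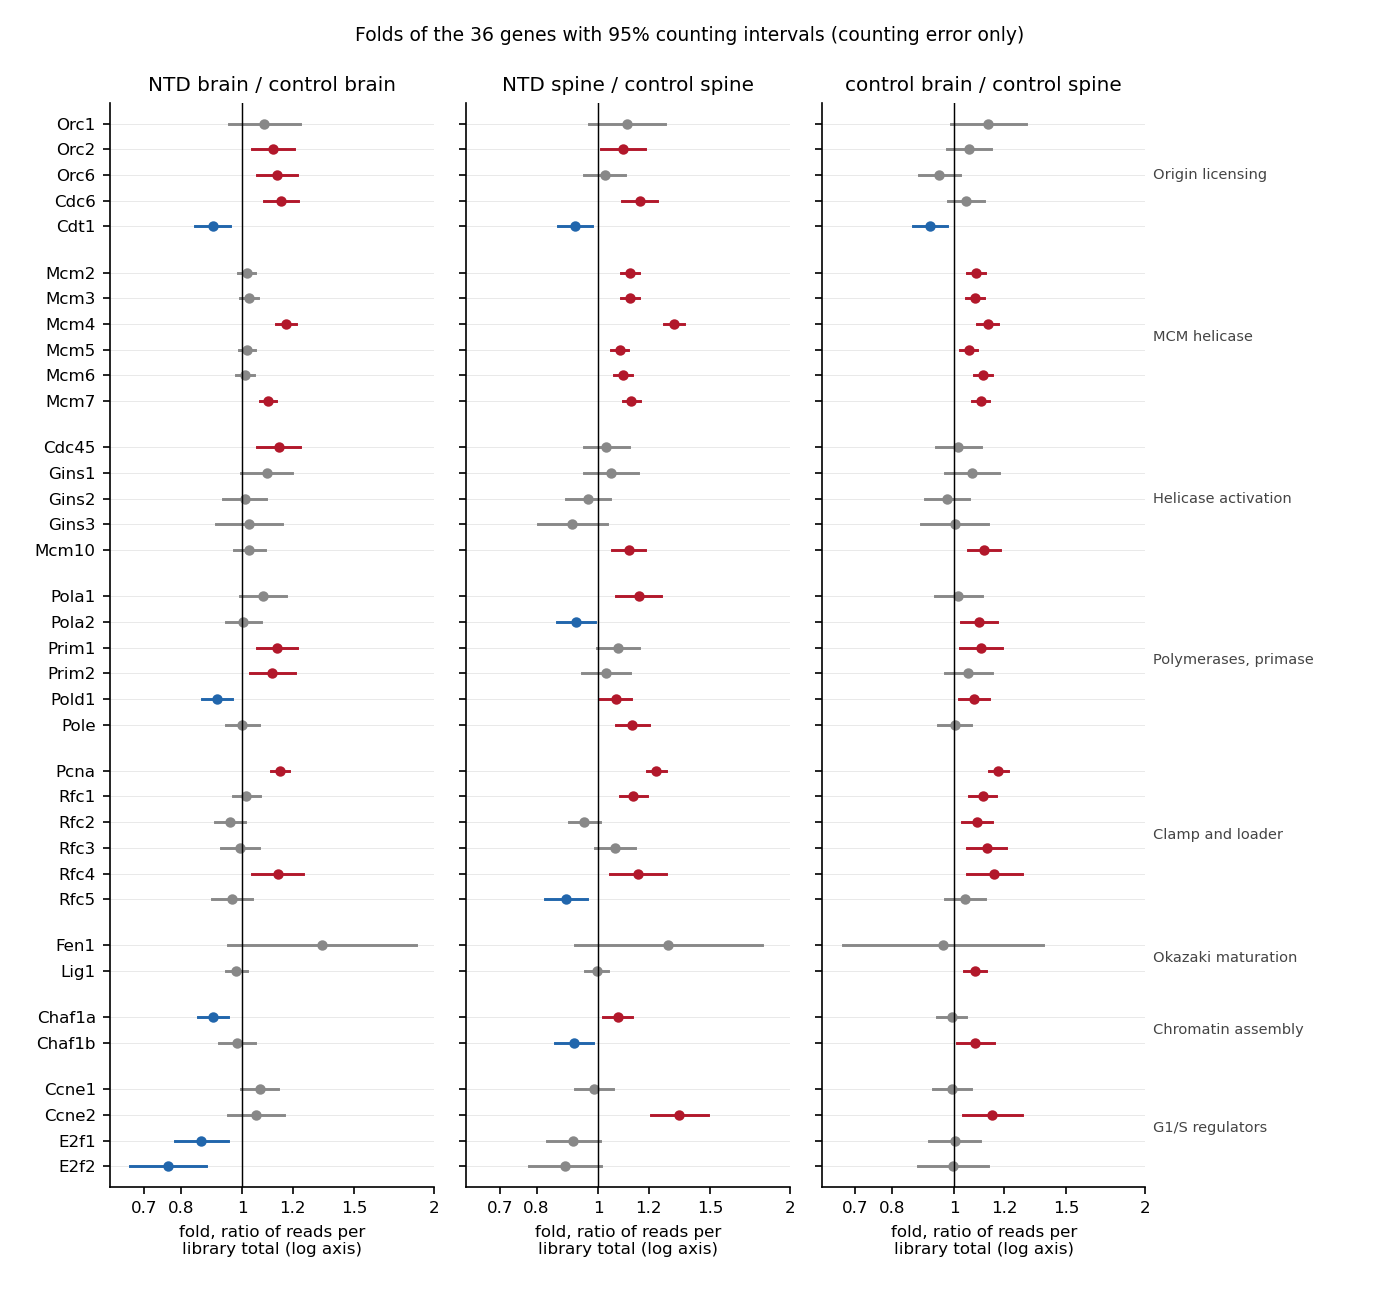
Fold of each of the 36 genes as reads per library total on a log axis, in 3 panels for NTD brain against control brain, NTD spine against control spine, and control brain against control spine. Bars are 95% counting intervals (counting error only), red where they lie above 1, blue where they lie below 1 and grey where they include 1; red bars number 10, 17 and 18 of 36.

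Among the origin licensing genes, Cdc6 was higher and Cdt1 lower than control in both tissues. Cdc6, an ATPase that works with the origin recognition complex to load MCM, was at 21.8 FPKM in control brain against 25.1 in NTD brain, and at 20.9 in control spine against 24.3 in NTD spine. Both NTD libraries were above both controls, by 1.15-fold in brain (1.08 to 1.22) and 1.16-fold in spine (1.09 to 1.24). Cdt1 (chr8:122568015-122573554, plus strand), the factor that brings MCM to the origin and is held in check by geminin, was at 38.2 FPKM in control brain against 34.3 in NTD brain, and at 41.7 in control spine against 38.3 in NTD spine. It was 1.11-fold lower in NTD brain (1.04 to 1.19) and 1.09-fold lower in NTD spine (1.02 to 1.16). With adjustment for GC content and length the log2 ratio of Cdt1 was -0.01 in brain and 0.02 in spine. Orc6, a subunit of the origin recognition complex, was at 33.0 FPKM in control brain against 37.4 in NTD brain, and at 34.8 in control spine against 35.6 in NTD spine. Its ratio was 1.13 in brain (1.05 to 1.22), while the interval in spine included 1 at 1.02 (0.95 to 1.10). Orc1 and Orc2, 2 further subunits of that complex, were above their controls in both tissues, and the counting intervals of Orc2 lay above 1 in both; 29.8% of Orc2's exonic bases are shared with Nif3l1 on the opposite strand.

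The MCM genes encode the ring-shaped core of the replicative helicase. In both tissues 6 of 6 subunits were higher in NTD than in control, against 43.6% of all genes in brain and 41.9% in spine. Counting intervals lay above 1 for 2 in brain (Mcm4 and Mcm7, against 16.1% of all genes) and for 6 in spine (17.2%). MCM genes have many reads and so narrow intervals. With the libraries rescaled to the same sum of FPKM, 2 of 6 were higher in brain (37.3% of all genes) and 6 of 6 in spine (51.7%). Mcm4 (chr16:15623897-15637400, minus strand) was at 96.2 FPKM in control brain against 113 in NTD brain, and at 85.1 in control spine against 112 in NTD spine. Both NTD libraries thus lay above both controls and near each other, with folds of 1.17 in brain (1.13 to 1.21) and 1.32 in spine (1.27 to 1.37). Mcm5, the most abundant subunit by mean FPKM, was at 126 FPKM in control brain against 128 in NTD brain, and at 119 in control spine against 129 in NTD spine. Its fold was 1.02 in brain (0.987 to 1.05), not distinguishable from 1 at this depth, and 1.08 in spine (1.05 to 1.12). Reads of the 6 subunits together exceeded control 1.05-fold in brain (1.04 to 1.07) and 1.13-fold in spine (1.12 to 1.15). Mcm7 has a processed copy, Gm5487, with 97.7% identity over 2157 bases; the ratios of Mcm7 with the copy's reads added were 1.09 and 1.12.

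Of the helicase activation genes, 5 of 5 were above control in brain (43.6% of all genes) and 3 of 5 in spine (41.9%). With the libraries rescaled to the same sum of FPKM these were 2 of 5 (37.3% of all genes) and 4 of 5 (51.7%). Gins1, the most abundant of them, was at 34.0 FPKM in control brain against 37.1 in NTD brain, and at 31.9 in control spine against 33.4 in NTD spine. Gins3 was at 11.98 FPKM in control brain against 12.3 in NTD brain, and at 11.96 in control spine against 10.9 in NTD spine, the lowest of the 4. Gins2 stayed between 18.1 and 18.8 FPKM in all 4 libraries; 67.3% of its exonic bases are shared with Gse1 on the opposite strand. These 3 encode subunits of GINS, the tetramer that joins Cdc45 and MCM in the active helicase, and their counting intervals included 1 in both NTD comparisons. Cdc45 had its interval above 1 in brain, and Mcm10, which helps to start unwinding, in spine.

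Among polymerase and primase genes, 4 of 6 were above control in brain (43.6% of all genes) and 5 of 6 in spine (41.9%). Pold1, the catalytic subunit of polymerase delta, was at 33.0 FPKM in control brain against 30.1 in NTD brain, and at 30.8 in control spine against 32.8 in NTD spine. It was 1.10-fold lower in NTD brain (1.04 to 1.16) and 1.07-fold higher in NTD spine (1.01 to 1.13). Its longest transcript has the highest GC content of the 36, 61%, and with adjustment for GC content and length its log2 ratio was 0.05 in brain and 0.26 in spine. The primase subunits Prim1 and Prim2 had intervals above 1 in brain, Pola1 and Pole, the catalytic subunits of polymerases alpha and epsilon, had them above 1 in spine, and Pola2, the accessory subunit of polymerase alpha, had its interval below 1 in spine.

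Pcna (chr2:132249162-132253314, minus strand), the ring that holds polymerases on DNA, was at 176 FPKM in control brain against 202 in NTD brain, and at 149.6 in control spine against 185 in NTD spine. Both NTD libraries lay above both controls, by 1.15-fold in brain (1.11 to 1.18) and 1.23-fold in spine (1.19 to 1.28). A processed copy, Pcna-ps2 (chr19:9283380-9284160, plus strand), is 99.2% identical over 781 bases and was listed at 151 FPKM in control brain against 157 in NTD brain, and at 145 in control spine against 141 in NTD spine, which is 19.9% to 23.9% of the reads of both together. Reads of a gene and so near a copy can be split between them by the authors' counting, so the Pcna values are uncertain. With the reads of both summed, the fold was 1.12 in brain (1.09 to 1.16) and 1.17 in spine (1.14 to 1.21), while the copy alone gave 1.04 in brain (0.978 to 1.11) and 0.972 in spine (0.911 to 1.04).

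The clamp loader genes, which encode the subunits of replication factor C, split. Above control were 2 of 5 in brain (43.6% of all genes) and 3 of 5 in spine (41.9%). Rfc4 was at 33.5 FPKM in control brain against 38.0 in NTD brain, and at 28.9 in control spine against 33.4 in NTD spine. Its folds were 1.14 in brain (1.03 to 1.25) and 1.16 in spine (1.04 to 1.28); 12.7% of its exonic bases are shared with Eif4a2 on the opposite strand, which was at 79.9 to 90.6 FPKM. Rfc5 was at 19.8 FPKM in control brain against 19.1 in NTD brain, and at 19.0 in control spine against 16.9 in NTD spine. The NTD spine library was the lowest of the 4, 1.12-fold below control spine (1.04 to 1.21), and the interval in brain included 1. Of Rfc5's exonic bases, 10.7% are shared with Wsb2 on the opposite strand. Wsb2 was listed at 4.17 FPKM in control brain against 2.81 in NTD brain, and at 4.28 in control spine against 3.07 in NTD spine. Rfc2 was below control in both tissues with intervals that included 1, Rfc1 had its interval above 1 in spine, and the intervals of Rfc3 included 1 in both. Rfc2 shares 15.1% of its exonic bases with Lat2 on the opposite strand, listed at 0.44 to 0.774 FPKM. Processed copies of Cdc6 (Gm9430) and Rfc5 (Gm12870) held at most 2 reads in any library.

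Okazaki fragment maturation rests on the flap endonuclease Fen1 and on the ligase Lig1. Fen1 was at 1.56 FPKM in control brain against 2.08 in NTD brain, and at 1.62 in control spine against 2.09 in NTD spine, from 64, 83, 64 and 84 reads. Its fold was 1.33 in brain (0.95 to 1.87) and 1.29 in spine (0.918 to 1.81), so a difference was not detectable at this depth. Of its 2422 exonic bases in the annotation, 1909 are shared with Gm10143 on the opposite strand, so the low level of Fen1 is uncertain. Lig1 was at 72.1 FPKM in control brain against 70.6 in NTD brain, and at 66.8 in control spine against 66.4 in NTD spine, with intervals that included 1 in both NTD comparisons.

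Chaf1a and Chaf1b encode the 2 larger subunits of chromatin assembly factor 1, which places histones on newly made DNA. Chaf1a (chr17:56040439-56072289, plus strand) was at 19.2 FPKM in control brain against 17.2 in NTD brain, and at 19.3 in control spine against 20.7 in NTD spine. The controls of both tissues were alike and the NTD libraries lay on either side of them, 1.11-fold lower in brain (1.05 to 1.17) and 1.07-fold higher in spine (1.02 to 1.13). With adjustment for GC content and length its log2 ratio went from -0.14 to -0.04 in brain and from 0.10 to 0.12 in spine. Chaf1a shares 52.5% of its exonic bases with Ubxn6 on the opposite strand, listed at 1.32 to 1.58 FPKM. Chaf1b was at 23.5 FPKM in control brain against 23.1 in NTD brain, and at 21.8 in control spine against 19.9 in NTD spine, with an interval below 1 in spine and one that included 1 in brain.

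Of the G1/S regulators, 2 of 4 were above control in brain (43.6% of all genes) and 1 of 4 in spine (41.9%). Their median was -0.07 in each. E2f2 and then E2f1 held the lowest log2 ratios of the 36 in brain. Ccne2 alone held the highest in spine, at 0.393 beside 0.392 for Mcm4. With adjustment for GC content and length, Mcm4 lay above Ccne2 in spine (0.37 against 0.34), and E2f1 in brain (-0.02) lay above Rfc3 (-0.09). E2f2 (chr4:136172394-136196057, plus strand), a transcriptional activator of the E2F family, was at 6.07 FPKM in control brain against 4.64 in NTD brain, and at 6.09 in control spine against 5.40 in NTD spine. It was 1.31-fold lower in NTD brain (1.14 to 1.50) and 1.13-fold lower in NTD spine, where the interval included 1 (0.989 to 1.29). E2f1, a second activator, was at 17.4 FPKM in control brain against 15.0 in NTD brain, and at 17.3 in control spine against 15.8 in NTD spine, 1.16-fold lower in brain (1.05 to 1.28) and 1.09-fold lower in spine (0.994 to 1.2). For both E2F genes the 2 controls were nearly equal and both NTD libraries were below them. Ccne2 (chr4:11191351-11204779, plus strand), which encodes cyclin E2, was at 12.9 FPKM in control brain against 13.5 in NTD brain, and at 11.2 in control spine against 15.0 in NTD spine. Its fold was 1.05 in brain (0.949 to 1.16) and 1.34 in spine (1.21 to 1.49); 17.4% of its exonic bases are shared with Ints8 on the opposite strand, listed at 12.5, 15.4, 11.0 and 14.5 FPKM in the same order of libraries. Ccne1, which encodes cyclin E1, stayed between 37.9 and 40.7 FPKM in all 4, with intervals that included 1 in both NTD comparisons.

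The NTD comparisons in brain and spine share no library. The sample labels hold no embryo or dam, so brain and spine may come from the same ones. Likeness between the tissues is therefore not a second replicate. Of the 36 genes, 21 were higher than control in both tissues (26.7% of all genes compared) and 7 lower in both (41.1%), namely Cdt1, Chaf1b, E2f1, E2f2, Lig1, Rfc2 and Rfc5. With counting intervals that left out 1 in both tissues, 6 of 36 were higher in both (7.96% of all genes), namely Cdc6, Mcm4, Mcm7, Orc2, Pcna and Rfc4. By the same rule 1 of 36, Cdt1, was lower in both (13.8%), 2, Chaf1a and Pold1, were lower in brain and higher in spine (1.3%), and 0 were higher in brain and lower in spine (1.47%). Set against each other, the ratio in spine exceeded the ratio in brain beyond counting error for 12 of 36 genes (12.6% of all genes) and fell short of it for 0 (11.8%). The shares by interval are over all genes with whole reads, many of them with fewer reads and so wider intervals. The 12 hold 5 of the 6 MCM genes, all but Mcm7, with Mcm10, Pold1, Pole, Pcna, Rfc1, Chaf1a and Ccne2. The difference on the log2 scale was 0.35 for Ccne2 (0.15 to 0.56), 0.25 for Chaf1a (0.15 to 0.36) and 0.17 for Mcm4 (0.10 to 0.24).

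**Figure D4:**
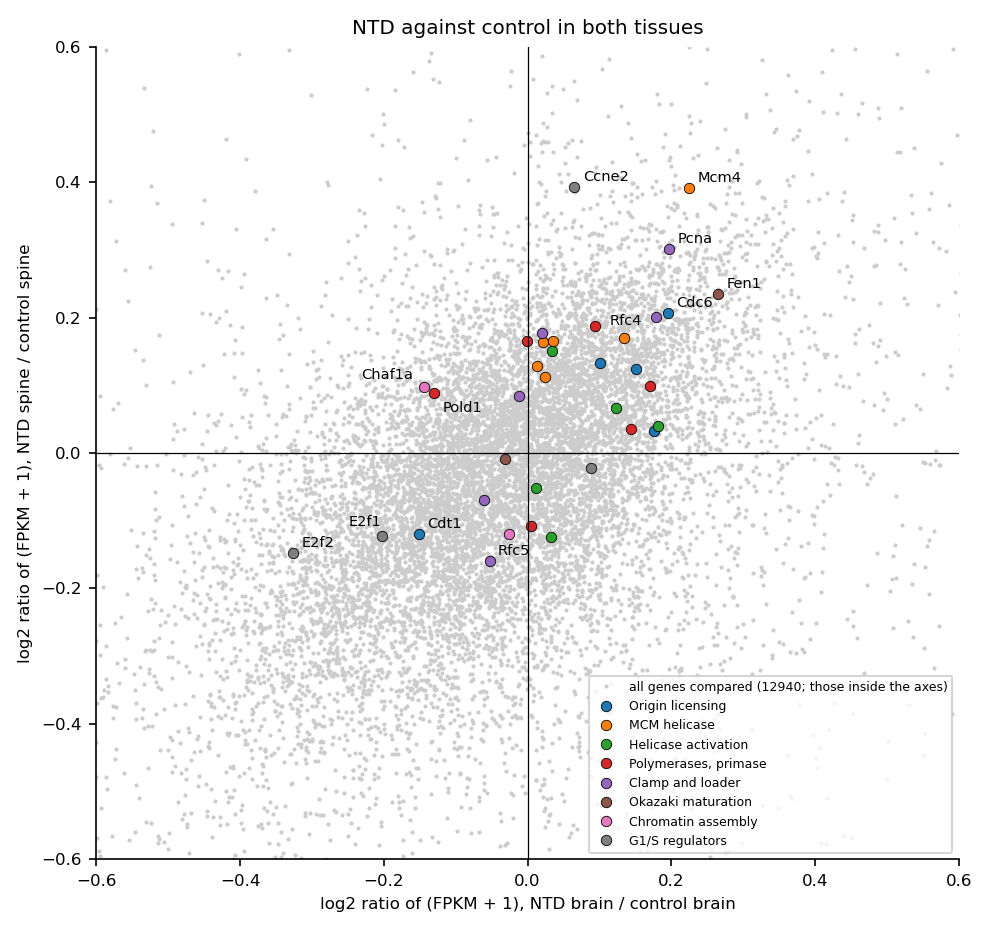
Log2 ratio of (FPKM + 1) in NTD brain against control brain (x axis) and in NTD spine against control spine (y axis), with all genes compared in grey and the 36 genes coloured by role. Mcm4, Pcna and Cdc6 lie at upper right, E2f1, E2f2 and Cdt1 at lower left, and Chaf1a and Pold1 at upper left.

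In the controls, 29 of the 36 genes were higher in brain than in spine and 7 lower, against 51.4% higher and 48.6% lower among all genes compared, and the median was 0.09. None reached 1.2-fold in either direction (0 higher against 9.89% of all genes, 0 lower against 13%). The 2 control libraries differ in tissue content. Neural progenitor markers were higher in control brain for 11 of 12 (median 0.49), while heart markers were lower for 12 of 12 (-3.26) and erythroid markers for 11 of 11 (-0.58). On the lists described below, mitosis genes were higher for 20 of 22, other replication genes for 31 of 42 and G1/S control genes for 10 of 22. The part of tissue content in these ratios was not tested. Counting intervals lay above 1 for 18 of 36 (20% of all genes) and below 1 for 1, Cdt1 (19.2%), which was 1.09-fold lower in control brain (1.03 to 1.16). Among genes that averaged 5 FPKM or more, intervals lay above 1 for 1748 and below 1 for 1481 of the 7776 with whole reads. Control spine was the lowest of the 4 libraries for 6 of 6 MCM genes, for Pcna and for Rfc4. It was also the lowest for members of other roles, such as Orc1, Cdc6, Gins1, Prim1 and Ccne2, and for the members' summed level. The same was not counted over all genes. Pcna gave the highest ratio of the 36, 1.17 (1.13 to 1.22), followed by Rfc4 at 1.16 (1.05 to 1.28). With the reads of Pcna-ps2 added to Pcna the ratio was 1.14 (1.11 to 1.18), below that of Rfc4. The control libraries enter these ratios and the NTD ratios alike, so these values and the NTD ratios are not independent.

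In NTD brain against NTD spine, 23 of 36 were higher and 13 lower (51.2% of all genes compared were higher and 48.7% lower), with a median of 0.06. None reached 1.2-fold (0 higher against 11.4%, 0 lower against 13.4%). Intervals lay above 1 for 13 (21.2%) and below 1 for 6 (22.3%). Among genes that averaged 5 FPKM or more, they lay above 1 for 1936 and below 1 for 1848 of the 7776 with whole reads. Reads of the MCM genes together were 1.09-fold higher in brain among the controls (1.08 to 1.11) and 1.01-fold among the NTD libraries (0.999 to 1.02). When the libraries were rescaled to the same sum of FPKM, 12 of the 36 were higher in NTD brain than in NTD spine, the median was -0.05, and the share of all genes that were higher moved from 51.2% to 31.9%.

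Genes of high GC content had lower NTD ratios, among the 36 and among all genes. Each gene was given the GC content of its longest annotated transcript, and Spearman's rho with the log2 ratio over all genes was -0.336 in the brain comparison and -0.359 in the spine comparison. Over the 36 genes, which share the same libraries, it was -0.534 and -0.391. Among the 36 the trend was not confined to the NTD ratios. In control brain against control spine rho was -0.519 over the 36 and -0.129 over all genes. In NTD brain against NTD spine it was -0.416 and -0.0942. Of the NTD ratios, the 12 members lowest in GC content (36.3% to 46.7%) had a median of 0.15 in brain, with 11 higher, and 0.16 in spine, with 12 higher. The 12 highest (51.9% to 61%) had medians of -0.01 and 0.04, with 6 higher in each. Ccne2 stands at the low end, and E2f2, Cdt1, E2f1 and Pold1 are the 4 highest in GC content. After each ratio was centred on genes of like GC content and length, the members' median was 0.07 in brain and 0.11 in spine, Mcm4 stood at 0.17 and 0.37, Ccne2 at -0.02 and 0.34, E2f2 at -0.19 and -0.04, and E2f1 at -0.02 and 0.07. In brain the adjustment also took Pcna from 0.20 to 0.09, Orc6 from 0.18 to 0.07 and Rfc4 from 0.18 to 0.08, and in spine Mcm5 from 0.11 to 0.22 and Rfc5 from -0.16 to -0.10.

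**Figure D5:**
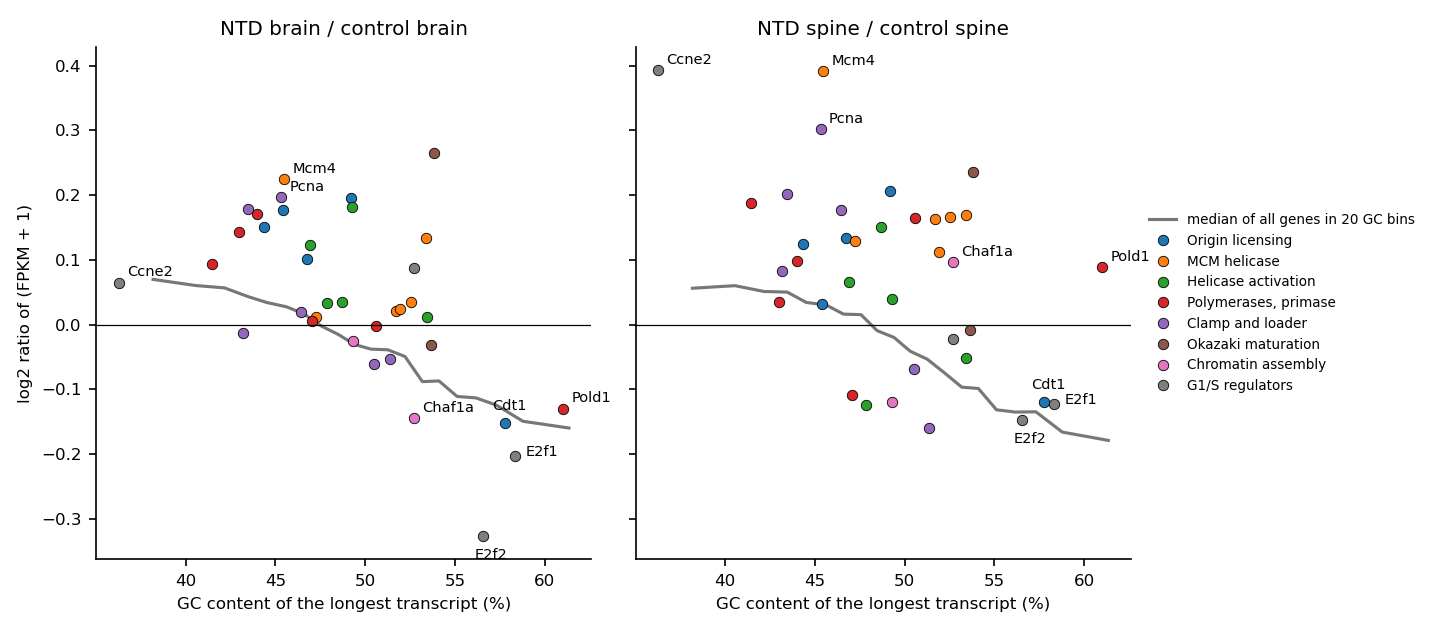
Log2 ratio of (FPKM + 1) against the GC content of the longest transcript for the 36 genes, coloured by role, in NTD brain (left) and NTD spine (right) against their controls. The grey line is the median of all compared genes in 20 bins of GC content and falls from left to right in both panels; Mcm4 and Pcna lie above it in both, and E2f2 below it in brain.

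A list of 44 other replication genes, from further ORC, GINS and polymerase subunits to topoisomerases and replication stress factors, was read beside the 36, with 42 compared. In NTD brain 26 were higher and 16 lower (43.6% and 56.4% of all genes), with a median of 0.04, and 3 were at least 1.2-fold higher (Pole2, Mcm8 and Orc5; 7.25% of all genes) and 0 lower (13.8%). In NTD spine 29 were higher and 13 lower (41.9% and 58% of all genes), with a median of 0.08, and 4 were at least 1.2-fold higher (6.38%) and 1 lower (15.2%). With the libraries rescaled to the same sum of FPKM, 20 of 42 were higher in brain (37.3% of all genes) and 33 of 42 in spine (51.7%). Pole2, the second subunit of polymerase epsilon, was at 9.17 FPKM in control brain against 11.8 in NTD brain, and at 7.96 in control spine against 9.91 in NTD spine. Mcm8, a helicase of the MCM family that acts in recombination, was at 10.5, 13.1, 9.92 and 12.6 FPKM in the same order. Top1, a topoisomerase that relieves the twist ahead of the fork, was 1.25-fold higher in NTD spine (1.21 to 1.29). The lowest was Rnaseh2c, a subunit of the enzyme that cuts RNA in RNA-DNA hybrids, at 41.1 FPKM in control brain against 34.8 in NTD brain, and at 43.1 in control spine against 29 in NTD spine, which is 1.48-fold lower in spine (1.36 to 1.62).

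Genes that control entry into S phase, such as D-type cyclins, retinoblastoma proteins, cyclin-dependent kinase inhibitors and other E2F factors, formed a list of 24, of which 22 were compared. In NTD brain 4 were higher and 18 lower (56.4% of all genes were lower), and in NTD spine 8 were higher and 14 lower (58%). The medians were -0.03 and -0.05, near the -0.03 and -0.04 of all genes. Rescaled by the median ratio, 10 were higher and 12 lower in each tissue (49.4% of all genes were higher in brain and 48.9% in spine). Rescaled to the same sum of FPKM, 3 were higher and 19 lower in brain (37.3% of all genes were higher), with a median of -0.07. In both tissues 3 inhibitors of cyclin-dependent kinases were the lowest of the list. Cdkn1c (p57) was at 35.4 FPKM in control brain against 25.2 in NTD brain, and at 60.1 in control spine against 42.7 in NTD spine, 1.41-fold lower in brain (1.29 to 1.54) and 1.41-fold lower in spine (1.31 to 1.50). Cdkn1b (p27) was 1.26-fold lower in brain (1.17 to 1.37) and 1.19-fold lower in spine (1.1 to 1.3), and Cdkn2d (p19) was 1.24-fold lower in brain (1.04 to 1.47) and 1.57-fold lower in spine (1.33 to 1.85). Tfdp1, the dimer partner of E2F proteins, was 1.09-fold higher in brain (1.05 to 1.13) and 1.14-fold higher in spine (1.09 to 1.18). E2f7, a repressor of the family, was 1.11-fold lower in brain (1.02 to 1.21) and 1.26-fold higher in spine (1.16 to 1.37).

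Mitosis genes, which mark the other end of the cell cycle, had medians of 0.04 in both tissues, with 15 of 22 higher in NTD brain (43.6% of all genes) and 12 of 22 in NTD spine (41.9%). With the libraries rescaled to the same sum of FPKM, 11 were higher and 11 lower in brain (37.3% of all genes were higher), with a median of 0.007. Bub1, a kinase of the spindle checkpoint, was the highest of them, at 1.23-fold in brain (1.17 to 1.29) and 1.31-fold in spine (1.25 to 1.39).

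Marker lists of the cell types that the tissue could hold were read in the same way. Among all genes compared, 56.4% were lower in NTD brain and 58% in NTD spine. Early neuron markers, of which 14 of 15 listed were compared, were lower for 14 of 14 in NTD brain and 13 of 14 in NTD spine, with medians of -0.58 and -0.57 and sums of 231 against 156 FPKM in brain and 139.6 against 84.4 FPKM in spine. Neural progenitor markers were lower for 12 of 12 in brain and 9 of 12 in spine, with medians of -0.23 and -0.13. Head mesenchyme markers were lower for 10 of 11 and 9 of 11, with medians of -0.24 and -0.30. Somite markers had medians of 0.16 and 0.07 and endothelial markers of -0.05 and 0.09. Erythroid markers had a median of -0.01 in brain and -0.76 in spine, and heart markers 1.41 in brain and -0.57 in spine, with Nppa at 0 in control brain. Endoderm and yolk sac markers summed to 3.12 FPKM in control brain against 2.96 in NTD brain, and to 151 in control spine against 48.8 in NTD spine; Afp, Ttr, Apoa1 and Apoa2 were at 0 in 1 or both brain libraries. The part of these cell types in the ratios of the replication genes was not tested. With erythroid, heart and endoderm genes left out of the library totals, 25 of the 36 were higher in each NTD comparison. Of all genes, 43.7% were then higher in brain and 41.2% in spine. The members' medians were 0.03 in brain and 0.09 in spine.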

How the data were processed

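The authors deposited 1 table of FPKM with 28765 genes and 4 libraries; alignment was to mm10 with HISAT2 2.0.1, per the submitters' processing notes. No source used here gives the counting program, its annotation or strand setting, or a filter. Identifiers were matched to GENCODE M21 (28698 matched, 67 not). Values multiplied by union exon length came in whole steps per library, which gave the library totals and, within 0.01 reads, whole reads for 28298 genes, all 36 members included; the 219 compared genes without whole reads got no interval. Ratios are log2 of (FPKM + 1) over the 12940 genes that averaged 1 FPKM or more, and understate the change of low genes. Folds are recovered reads per library total with exact conditional binomial (Clopper-Pearson) 95% intervals. Intervals of differences between tissues used the Poisson variance of log reads. At these depths the median half-width of the members' intervals was 0.10 on the log2 scale. Processed copies were found with blastn (at least 90% identity over at least 300 bases). Python 3.11.15, pandas 2.3.3 and SciPy 1.17.1 were used, and the steps were tested on simulated data. The members and lists were chosen with earlier results of these data known. Values in every library were given for members among the 4 highest or 4 lowest ratios of a main comparison and for the most abundant of each role; other members were given by counts and direction, and printed promoters came from members with values, except that of Mcm2. With 1 library per group no test was run; a joint fit over both tissues was not made. The alternatives were 2 other pseudocounts, no filter and a filter of 5 FPKM, 2 rescalings, protein-coding genes only, adjustment for GC content and length and, chosen after seeing the data, copies added, overlapping members left out, and totals without erythroid, heart and endoderm genes.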

Additional observations from a re-analysis of the deposited data

Results flagged for a closer look

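For 8 of the 36 genes the NTD ratio had opposite signs in brain and spine. The difference between the tissues was not tested over samples, since each group has 1 library; its counting interval, which covers counting error only, left out 0 for Chaf1a, Pold1 and Pole and included 0 for the other 5. The log2 fold in spine minus that in brain was 0.254 for Chaf1a and 0.225 for Pold1, the 2 whose counting intervals left out 1 in both tissues. Among the other genes that were lower in NTD brain and higher in NTD spine, it was 0.180 for Pole and 0.0996 for Rfc3. Among the genes that were higher in NTD brain and lower in NTD spine, it was -0.0665 for Gins2, -0.170 for Gins3, -0.123 for Pola2 and -0.112 for Ccne1.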

How the results depend on the processing

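No paired analysis was possible because the groups compared share only 1 replicate number; a joint fit of condition with tissue as a block, which would leave 1 residual degree of freedom, was not run. Over 11 alternative settings, 194 of 209 values for the whole list stayed within the set limits of the main value, 13 moved and 2 changed sign. Of 1158 values for single members, 1131 moved by less than the half-width of their counting interval. Both counts include values that could not change. The filters, protein-coding genes only and leaving out overlapping members keep the ratio of each member that remains. Adding copies alters only the 4 members that have one. With no filter and with protein-coding genes only, the values for the whole list were fixed as well. Of the values for single members, 42 changed sign, 18 of them with adjustment for GC content and length and 15 with the same sum of FPKM. An interval that left out 1 belonged to 2 of the 42. With the libraries rescaled to the same sum of FPKM, the members' median in NTD brain against control brain was -0.001746. In NTD brain against NTD spine it was -0.04779. Higher were 16 and 12 of 36, against 37.3% and 31.9% of all genes. In the first comparison 0 were at least 1.2-fold higher (5.98% of all genes), and in the second 3 were at least 1.2-fold lower (20.9%). With adjustment for GC content and length, 0 members were at least 1.2-fold lower in NTD brain, 5 were at least 1.2-fold higher in NTD spine, 1 was at least 1.2-fold higher in NTD brain against NTD spine, and 3 were lower in both tissues; Pold1 in brain turned to 0.05044 and Cdt1 in spine to 0.01647. A pseudocount of 5 FPKM left 0 members at least 1.2-fold higher and 0 lower in NTD brain, and a filter of 5 FPKM, which drops Fen1, left 0 higher; so did leaving out the 9 members that share over 10% of their exons with another gene. A pseudocount of 0.1 FPKM gave 1 member at least 1.2-fold lower in NTD brain against NTD spine. In NTD spine against control spine, 3 members were at least 1.2-fold higher in the main setting. The count was 2 with copies added and 2 with overlapping members left out. It was 4 with a pseudocount of 0.1 FPKM and 4 with the same sum of FPKM. Beyond these constructions, the cause was not tested. Depth limits Fen1 most, and with 1 library per group no setting shows the variation between embryos.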
